A study of Homo sapiens with 6 samples.

Results

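The genes described here store, import, export and sense iron. They are the ferritin chains FTH1 and FTL, the importers TFRC and SLC11A2, the exporter SLC40A1, the iron sensors ACO1, IREB2 and FBXL5, the ferritin receptor NCOA4 and the iron chaperone PCBP1. These 10 genes were taken by symbol from a table of 23858 genes, each symbol matched 1 row, and all 10 passed the filter of a mean of at least 1 RPKM (reads scaled by exon length and by the reads counted in the library) with which 16803 genes were tested. RNA was sequenced from NB4, an established human cell line of acute promyelocytic leukaemia with the PML-RARA fusion. There were 2 groups of 3 libraries each, cells given arsenic trioxide for 6 h (treated) and control cells, and where 3 values are given for a group they run from replicate 1 to replicate 3. The dose and the time at which control cells were taken are not given in the sources used here, and nothing says whether the replicates were separate cultures, so each p-value speaks only to the spread among these libraries, which may be technical. Protein and iron were not measured.

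Iron enters most cells bound to transferrin, which the transferrin receptor carries into endosomes, and DMT1, the product of SLC11A2, moves it from there into the cytosol. Surplus iron is oxidised and stored in ferritin, a shell of heavy (FTH1) and light (FTL) chains, or leaves through ferroportin (SLC40A1). When iron is scarce, the iron regulatory proteins IRP1 (ACO1) and IRP2 (IREB2) bind hairpins in messenger RNAs called iron-responsive elements, which blocks translation where the hairpin lies in the 5′ untranslated region and stabilises the message where it lies in the 3′ untranslated region. Both ferritin genes are also known transcriptional targets of NRF2, a factor of the oxidative stress response.

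The hairpin is shown here because it ties the ferritin, importer and exporter genes to their sensors. The search asked for C, any 5 bases, CAGTGN and any 5 bases on the transcript strand, with at least 4 of the 5 facing stem bases able to pair (A with T, G with C or T), in the untranslated regions of GENCODE 29 transcripts (GRCh38). Capitals mark the loop.
FTH1, 5′ region, chr11:61967576-61967600, minus strand: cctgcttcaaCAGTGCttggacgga
FTL, 5′ region, chr19:48965337-48965361, plus strand: cttgcttcaaCAGTGTttggacgga
SLC40A1, 5′ region, chr2:189580663-189580687, minus strand: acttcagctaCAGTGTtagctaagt
TFRC, 3′ region, chr3:196050981-196051005, minus strand: ttatcggaagCAGTGCcttccataa
TFRC, 3′ region, chr3:196050577-196050601, minus strand: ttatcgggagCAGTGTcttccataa
TFRC, 3′ region, chr3:196050512-196050536, minus strand: gtatcggagaCAGTGAtctccatat
TFRC, 3′ region, chr3:196050465-196050489, minus strand: ttatcgggaaCAGTGTttcccataa
SLC11A2, 3′ region, chr12:50988271-50988295, minus strand: ccatcagagcCAGTGTgtttctatg
Of the 10 genes, 3 held a match in the 5′ and 4 in the 3′ untranslated region, where the share among tested protein-coding genes was 1.37% of 10044 and 5.34% of 10080. The stem had 5 pairs in FTH1, FTL, SLC40A1 and all 4 TFRC matches and 4 in SLC11A2. The other 3′ matches, in IREB2 and ACO1, also had 4 pairs. A match describes the letters alone and was not tested as a binding site.

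Both ferritin genes rose with arsenic trioxide, by ratios of the deposited means of 4.52 for FTH1 and 2.07 for FTL. In these bulk samples fewer cells of a type and less RNA per cell cannot be told apart. The sensor ACO1 rose less, and the importer TFRC, the ferritin receptor NCOA4 and the chaperone PCBP1 fell. SLC11A2, SLC40A1, IREB2 and FBXL5 did not pass the test. Of the 10 genes, 3 were higher (FTH1, FTL, ACO1) and 3 lower (TFRC, NCOA4, PCBP1) at a limma-trend adjusted p under 0.05, where 12.0% of tested genes were higher, 13.4% lower and 25.4% called in either direction. Treated and control values were fully separate in 8 of the 10 genes, against 44.6% of all tested genes. The median log2 fold change, here always of RPKM + 1 and treated over control, was 0.11 over the 10 genes and -0.0033 over all tested genes. The authors' deposited table gives an adjusted p under 0.05 to 7 of the 10 genes, and to 29.3% of the genes tested here. The seventh was SLC11A2 (authors' deposited table, log2 fold change -0.33, adjusted p = 0.00733).

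**Figure D1:**
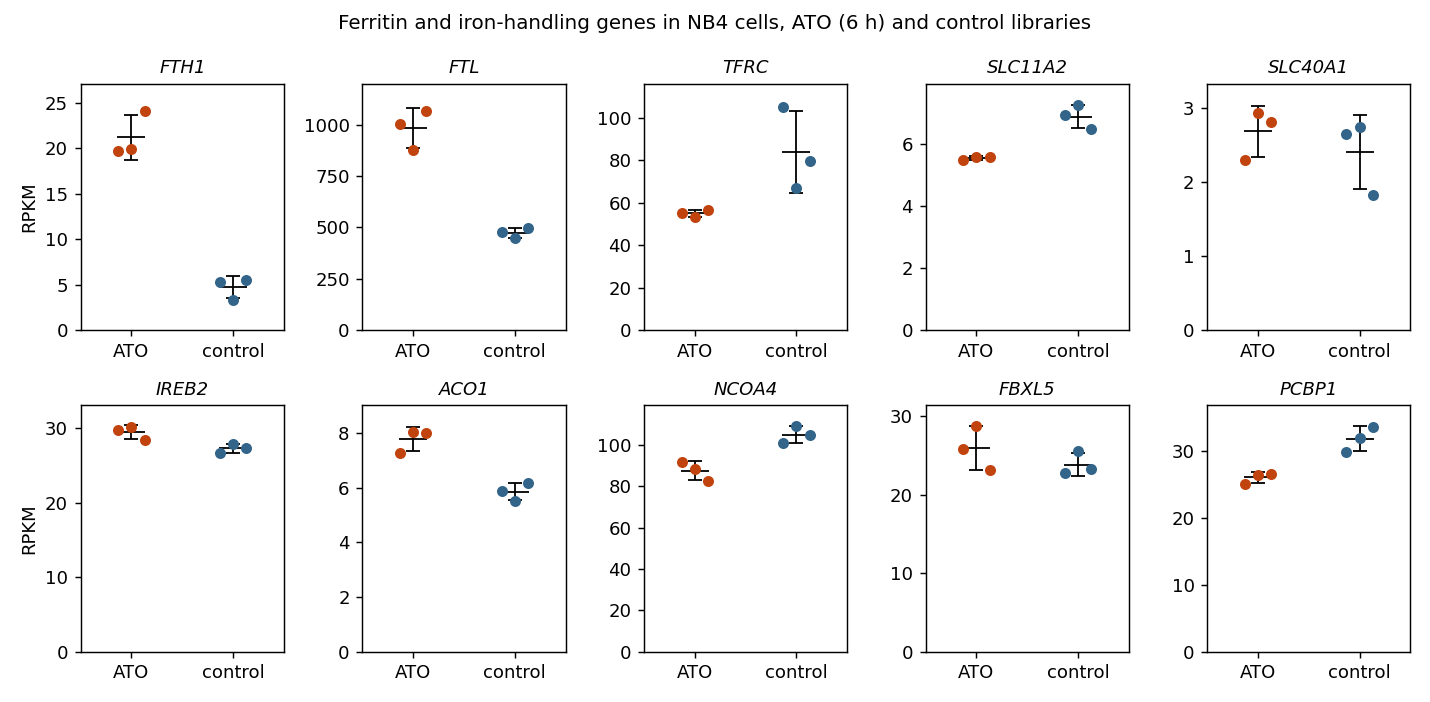
Level of each of the 10 genes in RPKM in arsenic trioxide (ATO, 6 h) and control libraries. Points are single libraries, the horizontal mark is the mean and the bars are the SD (n = 3 each), and every axis starts at 0. FTH1 and FTL sit higher in every ATO library, and SLC40A1 and FBXL5 are the genes whose groups overlap.

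FTL, the light chain that helps iron mineralise inside the shell, stood at 1006, 877 and 1067 RPKM in treated cells, against 476, 448 and 498 RPKM in control cells. Every treated library was above every control. The gene lies on the plus strand at chr19:48965301-48966878 (GRCh38). The ratio of the means was 2.07 (983 ± 97.1 and 474 ± 25.1 RPKM in arsenic trioxide and control cells, SD, n = 3 each). On the log2 scale this was 1.05 ± 0.10 (SE, limma-trend adjusted p = 0.00096). By level, FTL ranked 14 among all listed genes in arsenic trioxide cells and 28 in control cells, and 7621 to 20586 reads lay behind each value. The call held under all 13 alternatives tried, with log2 fold changes of 0.99 to 1.13.

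FTH1, the heavy chain with the ferroxidase site that oxidises iron for storage, stood at 19.7, 19.9 and 24.1 RPKM in treated cells. In control cells it stood at 5.32, 3.33 and 5.45 RPKM. All treated libraries were above all controls, and control replicate 2 was the lowest. The gene lies on the minus strand at chr11:61959718-61967660. The ratio of the means was 4.52 (21.2 ± 2.46 RPKM in treated and 4.70 ± 1.18 RPKM in control cells, SD, n = 3 each), and log2 rose by 1.98 ± 0.17 (SE, limma-trend adjusted p = 0.000799). All 13 alternatives kept the call, with log2 fold changes of 1.44 to 2.19. The values rest on 855 to 1074 reads in treated libraries and 131 to 250 reads in control libraries.

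The deposited level of FTH1 cannot be read against that of FTL, because much of its sequence is shared with other genes. Of 2398 distinct 50-base windows in the annotated FTH1 transcripts, 57.4% also occur, on either strand, in transcripts of 17 other genes. Most of these shared windows lie in BEST1, a chloride channel gene that overlaps FTH1 on the opposite strand. In FTH1 pseudogenes 19.9% of the FTH1 windows occur. The share of FTL windows found elsewhere was similar to this pseudogene share, at 18.3% of 829, all of it in FTL pseudogenes. The exons of BEST1 cover 62.4% of the 2030 exon bases of FTH1, the overlap that gives the windows shared with BEST1. The library kit does not mark strand, so reads there cannot be told apart. BEST1 held 348, 354 and 202 reads in treated cells, and 25, 43 and 25 reads in control cells. Its mean was 1.55 RPKM in treated and 0.170 RPKM in control cells, a ratio of 9.09. BEST1 was below the filter and was not tested. For reads that fit several places, the sources used here do not give the authors' counting rule.

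Adding the reads counted in FTH1 pseudogenes made the FTH1 rise smaller. The larger overlap with BEST1 was not examined this way, so these values do not bound the effect of shared sequence. The 10 listed FTH1 pseudogenes held 492, 447 and 508 reads together in treated cells, and 397, 342 and 461 reads in control cells. As unscaled reads these sums overlapped between the groups. Divided by the library totals, each treated sum was above each control sum, so adding these reads to FTH1 could not have reversed its direction. With these reads added to FTH1, the ratio of the means was 2.27 in place of 4.52, and the log2 fold change 1.13 in place of 1.98. Whether these reads come from FTH1 messages was not tested, so 2.27 is not a corrected value. For FTL, whose 3 listed pseudogenes held 59 to 83 reads in arsenic trioxide and 73 to 77 reads in control libraries, the ratio was 2.06 in place of 2.07. Of the 13 ferritin pseudogenes, 9 passed the filter, and 1 of these rose and 1 fell (limma-trend). The share called was 22.2%, near the 25.4% of all tested genes. FTH1P2 averaged 7.95 ± 3.20 RPKM in arsenic trioxide and 1.66 ± 0.473 RPKM in control cells (SD, n = 3 each; log2 fold change 1.71, adjusted p = 0.00511). FTLP8 averaged 5.28 ± 1.09 RPKM in arsenic trioxide and 10.6 ± 1.62 RPKM in control cells (-0.89, adjusted p = 0.00843), a call lost without control replicate 1 and arsenic trioxide replicate 3 together (0.067).

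**Figure D2:**
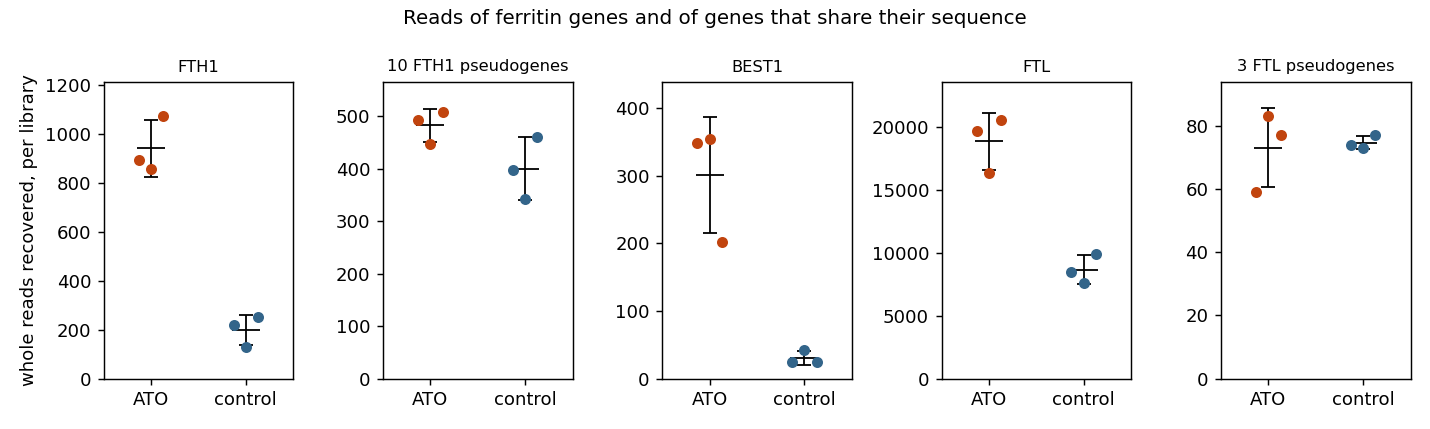
Whole reads recovered per library for FTH1, its 10 listed pseudogenes together, BEST1, FTL and its 3 listed pseudogenes together, in arsenic trioxide (ATO) and control libraries. Points are libraries, marks are means and bars are SD (n = 3 each). FTH1, BEST1 and FTL lie higher in every ATO library. The pseudogene sums, as reads not scaled by library totals, overlap between the groups.

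TFRC, the transferrin receptor through which most cells take up iron, stood at 55.3, 53.3 and 56.6 RPKM in treated cells, against 105, 66.8 and 79.8 RPKM in control cells. The treated libraries lay close together below every control, and control replicate 1 was the highest. The gene lies at chr3:196027183-196082189, minus strand. The means were 55.1 ± 1.66 and 84.0 ± 19.6 RPKM in arsenic trioxide and control cells (SD, n = 3 each), a ratio of 0.655 and a log2 change of -0.58 ± 0.15 (SE, limma-trend adjusted p = 0.0317). Without control replicate 1 the log2 fold change was -0.40 (adjusted p = 0.0287). Leaving out control replicate 3 ended the call (adjusted p = 0.0698), as did leaving out treated replicate 1 (0.0792), 2 (0.0875) or 3 (0.0688). At least 8906 reads lay behind each value, and 0.0874% of the 50-base windows of TFRC occur in other genes.

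SLC11A2 (chr12:50979401-51028566, minus strand) stood at 5.46, 5.56 and 5.58 RPKM in treated cells, against 6.91, 7.23 and 6.47 RPKM in control cells. The groups did not overlap, but the log2 fold change of -0.27 (95% interval -0.47 to -0.06) did not pass after adjustment (limma-trend adjusted p = 0.0611). With limma-voom on the recovered reads it passed (adjusted p = 0.0151). The gene makes messages with and without the iron-responsive element, and the values cover both. SLC40A1 (chr2:189560579-189583758, minus strand), the gene of the exporter ferroportin, was the lowest of the 10 genes, at 2.30, 2.94 and 2.82 RPKM in treated cells and 2.65, 2.74 and 1.83 RPKM in control cells. Its groups overlapped, and the log2 fold change was 0.12 (95% interval -0.25 to 0.49, limma-trend adjusted p = 0.612). That interval spans changes of either sign, and 179 to 270 reads lay behind each value.

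**Figure D3:**
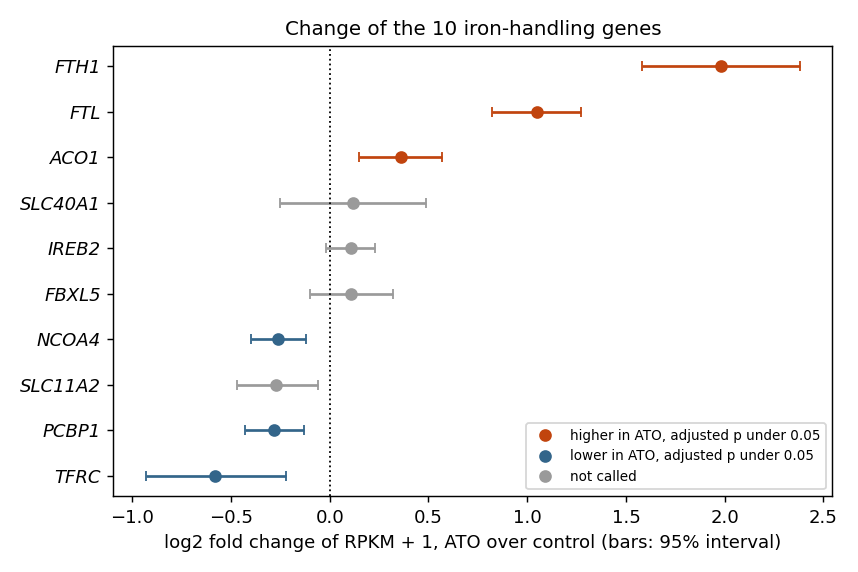
Log2 fold change of RPKM + 1, arsenic trioxide (ATO) over control, of the 10 genes from limma-trend, ordered by size, with bars for the 95% interval. FTH1 (1.98) and FTL (1.05) lie apart from the other 8 genes, which lie between -0.58 (TFRC) and 0.36 (ACO1).

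Among the sensors, ACO1 (chr9:32384603-32454769, plus strand) rose. IREB2 (chr15:78437431-78501456, plus strand) and FBXL5 (chr4:15604539-15681679, minus strand) did not pass the test. ACO1, whose product is the cytosolic aconitase that turns into IRP1 when it loses its iron-sulfur cluster, stood at 7.28, 8.05 and 8.00 RPKM in treated cells, against 5.88, 5.52 and 6.17 RPKM in control cells. The groups did not overlap, and the log2 change was 0.36 ± 0.09 SE (ratio 1.33, limma-trend adjusted p = 0.0267). Leaving out any 1 library other than treated replicate 1 ended it (adjusted p = 0.0572 to 0.0824). IREB2, which encodes IRP2, stood at 29.8, 30.2 and 28.4 RPKM in treated cells and at 26.6, 27.9 and 27.3 RPKM in control cells. Its groups did not overlap but lay close, with a log2 fold change of 0.11 (95% interval -0.02 to 0.23, limma-trend adjusted p = 0.187). FBXL5, the iron-binding subunit of the ubiquitin ligase that marks iron regulatory proteins for degradation, stood at 25.8, 28.7 and 23.1 RPKM in arsenic trioxide and 22.7, 25.5 and 23.2 RPKM in control cells. These groups overlapped, with a log2 fold change of 0.11 (95% interval -0.10 to 0.32, limma-trend adjusted p = 0.403).

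NCOA4 (chr10:46005088-46030714, minus strand) and PCBP1 (chr2:70087454-70089203, plus strand), which act on iron leaving and entering ferritin, both fell. NCOA4, the receptor that takes ferritin to the lysosome so that its iron is freed, stood at 91.8, 88.3 and 82.7 RPKM in treated cells, against 101, 109 and 105 RPKM in control cells. All treated libraries were below all controls, with a log2 change of -0.26 ± 0.06 SE (ratio 0.835, limma-trend adjusted p = 0.0209). NCOA4 no longer passed without control replicate 2 (adjusted p = 0.0752) or 3 (0.0615), nor without treated replicate 2 (0.0557) or 3 (0.0502). PCBP1, a single-exon gene for the chaperone that hands iron to ferritin, stood at 25.1, 26.5 and 26.6 RPKM in treated cells, against 29.9, 32.0 and 33.6 RPKM in control cells. Again the groups did not overlap, with a log2 change of -0.28 ± 0.06 SE (ratio 0.818, limma-trend adjusted p = 0.019). PCBP1 no longer passed without treated replicate 1 (0.0617) or without control replicate 2 (0.0612) or 3 (0.0672). The antisense gene PCBP1-AS1 covers 52.2% of the PCBP1 exon and was at 5.16 ± 0.787 RPKM in arsenic trioxide and 3.58 ± 0.641 RPKM in control cells (SD, n = 3 each; limma-trend adjusted p = 0.0751), and without strand the reads of the shared stretch cannot be told apart.

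Ordered by RPKM in arsenic trioxide cells, FTL was followed by NCOA4, TFRC, IREB2, PCBP1, FBXL5, FTH1, ACO1, SLC11A2 and SLC40A1. In that order the libraries of PCBP1 and FBXL5, and of FBXL5 and FTH1, overlapped, while other neighbours did not. In control cells the order was FTL, NCOA4, TFRC, PCBP1, IREB2, FBXL5, SLC11A2, ACO1, FTH1 and SLC40A1, and only NCOA4 and TFRC overlapped. FTH1 therefore stood in place 7 of the 10 genes in arsenic trioxide and place 9 in control cells, subject to the shared sequence described above. Its rank among all 23858 listed genes was 2449 in arsenic trioxide and 9318 in control cells. The places of PCBP1 carry a like limit, as PCBP1-AS1 covers 52.2% of its exon.

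Storage and uptake messages were also set against each other within each library. The ratio of FTH1 plus FTL to TFRC in RPKM was 18.5, 16.8 and 19.3 in treated cells, against 4.57, 6.76 and 6.32 in control cells. The groups did not overlap, and the ratio was 3.14 times higher with arsenic trioxide (exact two-sided permutation test, p = 0.1, n = 3 each). This is the smallest p that the 20 assignments allow, and it stayed 0.1 after Benjamini-Hochberg adjustment over the 3 quantities tested this way. The summed RPKM of FTH1 and FTL gave the same p, at 1026, 897 and 1091 RPKM in treated cells and 481, 452 and 504 RPKM in control cells. FTL supplied nearly all of this sum in the deposited values, subject to the shared sequence of FTH1 described above.

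The FTH1 to FTL ratio was separate between the groups on the deposited values and overlapped once pseudogene reads were added. It was 0.0196, 0.0227 and 0.0226 in treated cells, against 0.0112, 0.00743 and 0.0109 in control cells, a 2.23-fold difference (exact two-sided permutation test, p = 0.1, n = 3 each). With the pseudogene reads added to both genes the ratio was 0.0326 ± 0.00205 in arsenic trioxide and 0.0296 ± 0.00257 in control cells (SD), a 1.10-fold difference with overlapping groups (exact permutation p = 0.3, n = 3 each). The ratio of storage to uptake messages was 3.09 times higher when the same reads were added.

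**Figure D4:**
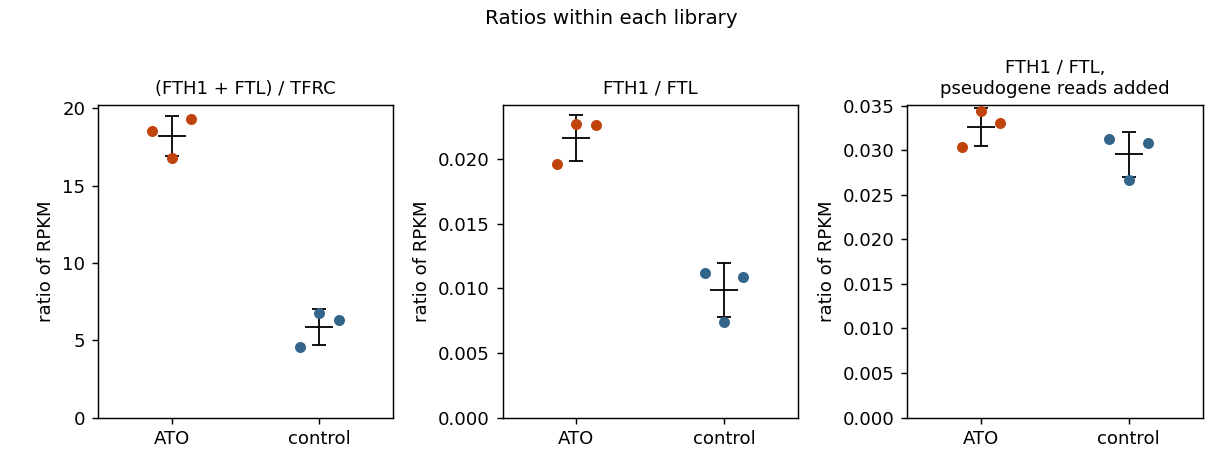
Ratios of RPKM within each library for FTH1 plus FTL over TFRC (left), FTH1 over FTL (middle) and FTH1 over FTL with the reads of listed pseudogenes added to each gene (right), in arsenic trioxide (ATO) and control libraries. Points are libraries, marks are means and bars are SD (n = 3 each). The groups are apart in the left and middle panels and overlap in the right one.

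Beyond the 10 genes, 6 lists of other iron genes held 63 genes, of which 52 were listed and 41 passed the filter. Of these 41 genes, 4 rose and 7 fell (limma-trend adjusted p under 0.05), and their median log2 fold change was -0.04. The share called was 26.8%, near the 25.4% of all tested genes, of which 12.0% were higher and 13.4% lower, so the counts over these lists do not stand out from the background. Among the other uptake genes 1 of 4 tested fell and 0 rose. STEAP3, the endosomal reductase that prepares iron for DMT1, stood at 4.68, 3.74 and 5.26 RPKM in treated cells, against 7.81, 7.72 and 7.70 RPKM in control cells (log2 fold change -0.66, adjusted p = 0.00928). STEAP3 was lower in every treated library and kept its call under all 13 alternatives. TF, TFR2, HFE and SLC11A1 were below the filter, and STEAP1, STEAP2, STEAP4, SLC22A17 and LCN2 were not among the listed genes.

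Among partners in sensing and delivery 2 of 8 tested genes rose and 0 fell, with 25% called against 25.4% of all tested genes. PCBP3, a relative of PCBP1, averaged 4.71 ± 0.572 RPKM in arsenic trioxide and 2.10 ± 0.232 RPKM in control cells (SD, n = 3 each; log2 fold change 0.88, limma-trend adjusted p = 0.00427). SKP1, a core subunit of the ligase that uses FBXL5, averaged 16.7 ± 1.15 RPKM in arsenic trioxide and 13.2 ± 0.660 RPKM in control cells (0.32, adjusted p = 0.0223), a call lost without control replicate 1 (0.0572) or 2 (0.0734) and without arsenic trioxide replicate 2 (0.0531) or 3 (0.0542). BOLA2 and FTMT were not listed.

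In the mitochondrial iron and iron-sulfur list 2 of 18 tested genes rose and 3 fell, with 27.8% called against 25.4% of all tested genes. SLC25A37, which encodes mitoferrin 1, the importer of iron into mitochondria, averaged 25.7 ± 0.437 RPKM in arsenic trioxide and 18.6 ± 1.02 RPKM in control cells (SD, n = 3 each; log2 fold change 0.45, limma-trend adjusted p = 0.0035). HSPA9, a mitochondrial chaperone that takes part in cluster transfer, rose too, averaging 236 ± 4.27 RPKM in arsenic trioxide and 185 ± 4.34 RPKM in control cells (0.35, adjusted p = 0.00448). The scaffold ISCU on which clusters are built fell to 12.9 ± 0.451 RPKM in arsenic trioxide, against 16.2 ± 0.448 RPKM in control cells (-0.30, adjusted p = 0.0144). The desulfurase NFS1, which supplies the sulfur, fell to 4.56 ± 0.147 RPKM in arsenic trioxide, against 6.41 ± 0.609 RPKM in control cells (-0.41, adjusted p = 0.0256). The ISCU call ended without control replicate 2 (0.0539) and without control replicate 1 and treated replicate 3 together (0.066). The NFS1 call was lost without any 1 library other than control replicate 3 (0.0599 to 0.084). FDX2 was below the filter.

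**Figure D5:**
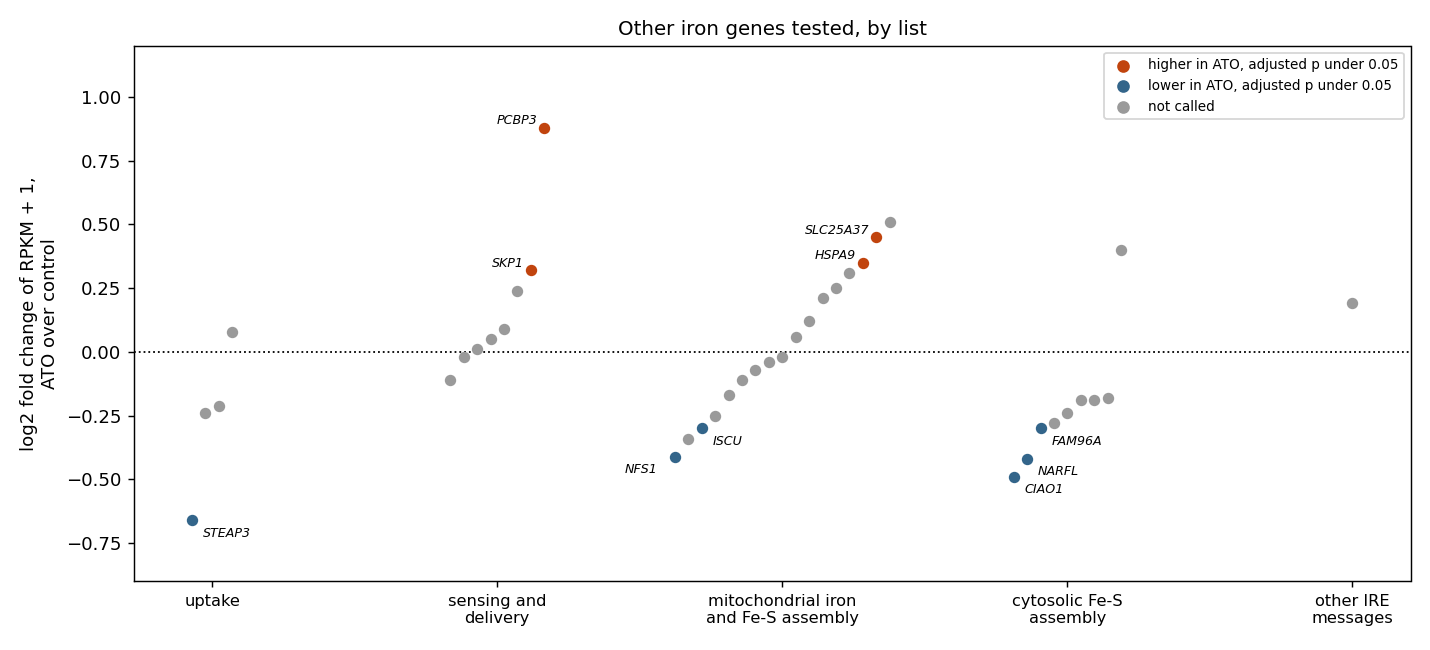
Log2 fold change of RPKM + 1, arsenic trioxide (ATO) over control, of other iron genes tested, 2 of the 41 not shown, as points grouped by list and ordered by size within it. The genes shown that rose or fell are coloured and named, and 8 of the 9 cytosolic iron-sulfur genes lie below 0.

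In the cytosolic iron-sulfur assembly list 3 of 9 tested genes fell and 0 rose, and 8 of the 9 fitted changes were below 0 (median log2 fold change -0.24). Across the whole table of tested genes, 13.4% fell and 50.3% had a fitted change below 0, and with 9 genes nothing particular to the list is read from these counts. CIAO1, which helps place clusters into target proteins, averaged 26.2 ± 1.78 RPKM in arsenic trioxide and 37.1 ± 2.14 RPKM in control cells (SD, n = 3 each; -0.49, limma-trend adjusted p = 0.00444). Its partner CIAO2A, listed as FAM96A, which takes part in maturing IRP1, also fell, with 31.5 ± 0.837 RPKM in arsenic trioxide and 38.9 ± 2.25 RPKM in control cells (-0.30, adjusted p = 0.0139), though not with the replicate number as a block (0.05). CIAO3, listed as NARFL, averaged 1.00 ± 0.0600 RPKM in arsenic trioxide and 1.68 ± 0.0555 RPKM in control cells (-0.42, adjusted p = 0.0417), a call lost without any 1 of the 6 libraries (0.0892 to 0.105) and with a pseudocount of 0.1 (0.0508). Among the other messages known to carry an iron-responsive element, 0 of 2 tested were called at an adjusted p under 0.05 with limma-trend, and 1 had an unadjusted p under 0.05. CDC14A, a cell cycle phosphatase gene, had an adjusted p of 0.274. ALAS2, EPAS1 and CDC42BPA were below the filter. In the export and systemic control list HEPH, CP and BMP6 were below the filter, and HAMP, HJV, HEPHL1 and TMPRSS6 were not listed.

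By the root mean square difference between the 6 centred log2 values, the 5 tested genes most like FTH1 were GCLM (0.129), AKR1C4 (0.149), FAM219A (0.154), GABARAPL1 (0.160) and PPP1R15A (0.160), where the median over all genes was 1.031. The 5 most like FTL were CASP4 (0.050), PGD (0.052), TFE3 (0.058), POPDC3 (0.058) and DGKG (0.061), with a median of 0.564. Those most like TFRC were GS1-259H13.7 (0.073), IKZF2 (0.084), ALKBH2 (0.088), CTC-268N12.2 (0.090) and GNA15 (0.095), with a median of 0.398. CASP4, the nearest to FTL, averaged 8.47 ± 0.707 RPKM in arsenic trioxide and 3.82 ± 0.391 RPKM in control cells (SD, n = 3 each). PGD, the next nearest, averaged 188 ± 19.4 RPKM in arsenic trioxide and 96.6 ± 3.20 RPKM in control cells. GS1-259H13.7, the nearest to TFRC, averaged 1.71 ± 0.165 RPKM in arsenic trioxide and 2.78 ± 0.724 RPKM in control cells. GCLM, the nearest to FTH1, averaged 33.6 ± 5.28 RPKM in arsenic trioxide and 8.01 ± 0.848 RPKM in control cells (SD, n = 3 each). This likeness describes 6 libraries in 2 groups, and any gene with a change of the same size scores well. Whether the genes named share a regulator was not tested.

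Library totals were 19361333 to 22609019 reads. Control replicate 1 and arsenic trioxide replicate 3 stood apart from the other 4 libraries on the second principal component (15.2% of the variance), and without both of them FTH1 (adjusted p = 0.0117), FTL (0.0128) and PCBP1 (0.035) kept their calls and TFRC (0.0523), NCOA4 (0.0513) and ACO1 (0.108) did not. Of 8 promyelocyte markers 7 were listed, at means of 14.5 to 808 RPKM with a sum of 713 to 1046 RPKM in arsenic trioxide and 1054 to 1432 RPKM in control libraries, while ELANE was not listed. Among markers of other cells, 1 of 6 erythroid genes was listed (EPOR, 0.975 to 1.38 RPKM in arsenic trioxide and 0.690 to 0.805 RPKM in control libraries) and the globins HBB, HBA1 and HBG1 were not. The macrophage gene VSIG4, 1 of 5, lay at 7.16 to 14.0 RPKM in arsenic trioxide and 3.48 to 7.16 RPKM in control libraries. CD4 and CD3D, 2 of 3 T cell genes, summed to 30.4 to 34.9 RPKM in arsenic trioxide and 42.3 to 43.9 RPKM in control libraries. CD4 supplied most of that sum and fell (log2 fold change -0.42, limma-trend adjusted p = 0.00998). CD3D, at 3.51 RPKM over all libraries, was not called (-0.03, adjusted p = 0.908). Of the epithelial genes EPCAM alone was listed, at 4.50 to 6.72 RPKM in arsenic trioxide and 4.82 to 6.09 RPKM in control libraries, and 0 of 3 fibroblast genes were. Their part in the changes of the iron genes was not tested.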

How the data were processed

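Libraries came from total NB4 RNA after removal of ribosomal RNA, per the labels' protocols, and the kit named there keeps no strand. Tools listed in the submitters' processing notes are HISAT2 2.1.0, HTSeq and DESeq2, with build hg38. Per the file headers, the authors worked on reads with duplicates removed. The authors deposited RPKM of 23858 genes in 6 libraries. The same table holds the authors' mean normalized signal, log2 fold change with its standard error, test score (the change over its error), p-value and adjusted p-value, per the file headers. The fold changes and p-values are quoted as the authors' and entered no test.

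Because the values are RPKM, limma 3.58.1 in R 4.3.3 was run in trend mode on log2 of RPKM + 1 for genes averaging 1 RPKM or more, with treatment as the only term and Benjamini-Hochberg adjustment over all 16803 genes at 0.05. Fold changes on this scale understate the change of low genes. Reads were recovered as RPKM times exon length (GENCODE 29) and 1 total per library. All 6 values came out whole, within 0.01 reads, for 93.6% of genes with the annotated length and for 97.3% once the deposited mean settled the length; the rest were rounded. No listed gene summed to fewer than 21 reads, so a gene that is not listed may have been below that. Precision is limited by these reads and by 3 libraries per group. Ratios were tested with an exact two-sided permutation test. The limma fits were also run on simulated reads with the same spread set for every gene. Their outcome is not reported here and backs no call above. Alternatives were 2 other pseudocounts, no filter, median-ratio factors, limma-voom on recovered reads, the replicate number as a block, each library left out, pseudogene reads added, and, chosen after seeing the data, 2 libraries left out together. Named were all 10 genes, up to 4 called genes with the smallest p per list, and the 5 genes nearest to FTH1, FTL and TFRC. Some genes that the counts include are not reported here. The members, lists and tests were chosen with earlier results of these data known.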

Additional observations from a re-analysis of the deposited data

How the results depend on the processing

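FTH1, FTL and STEAP3 kept their direction and calls under all 13 alternatives of the fit, and adding pseudogene reads moved the FTH1 log2 fold change to 1.13. The count of iron members that fell was 3, and 0 to 3 with 1 library left out, 0 being without control replicate 3; it was 1 without control replicate 1 and arsenic trioxide replicate 3 together. The 7 other iron genes that fell became 3 with the replicate number as a block, 3 to 5 with 1 library left out and 3 without those 2 libraries. Over all genes, 2021 rose and 2252 fell, against 1331 to 1525 and 1427 to 1908 with 1 library left out, and 1200 and 1484 without those 2 libraries. Fewer samples entered each of these fits. The replicate block (1460 higher, 1616 lower over all genes) also ended calls of ACO1 (adjusted p = 0.0697), NCOA4 (0.0608), NFS1 (0.0589), NARFL (0.0972) and FAM96A (0.05), among the genes named here. Same-numbered libraries did not deviate together (r = -0.0852, 0.148 and -0.0829 over genes), so the numbers were not taken to pair them, and a call lost under the block is not a weaker effect. The ratios kept their direction, with log2 differences of 0.97 to 1.26 (FTH1 to FTL), 1.48 to 1.76 (FTH1 plus FTL to TFRC) and 1.00 to 1.14 (sum) with 1 library left out, 0.14, 1.63 and 1.05 with pseudogene reads added, and 1.16, 1.65 and 1.06 within replicate numbers (exact sign-flip p = 0.25, the smallest possible).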
